A study of Rattus norvegicus with 12 samples.

Results

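The 9 genes described here carry arachidonic acid from membrane lipid to prostaglandin signal: the phospholipases Pla2g2a, Pla2g5 and Pla2g4a, the cyclooxygenases Ptgs1 and Ptgs2, the synthases Ptges and Ptgis, and the prostaglandin E2 receptors Ptger2 and Ptger4. They were chosen by name, with values and fold changes of the same 12 libraries already known, and all 9 were found by symbol among the 14636 genes of the deposited table. Their levels and changes are therefore given as a description, with no test. All 9 also passed the filter on low values, an average of 0.5 FPKM or more across all libraries, which left 11302 genes. FPKM are fragments scaled by transcript length and by the mapped fragments of the library, so levels of different genes are compared per length.

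RNA came from primary heart cells of Sprague Dawley rats aged 2 days, in 4 groups of 3 libraries. CM_yap are cardiomyocytes given 2 siRNAs against Yap (25 nM of each), and CM_neg are cardiomyocytes given a universal negative control siRNA. CF_yap and CF_neg are cardiac fibroblasts given the same reagents. Hearts were dissociated with a kit, a Percoll gradient parted the cell types, and all cultures were held in DMEM that contained antibiotics and 15% FBS. Transfection followed plating by 16 h, and RNA was taken 48 h later. The sources used here do not say whether a group's libraries stem from separate animals or cultures, so spreads and p-values measure the difference between these libraries, which may be technical. The table holds no read counts and the depth is unknown, so no counting error can be given.

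Yap1, the transcriptional coactivator that the siRNAs target, stood at 5.9, 4.43 and 6 FPKM in CM_yap, against 55.26, 60.8 and 63.11 FPKM in CM_neg. It stood at 4.45, 3.88 and 4.49 FPKM in CF_yap, against 35.42, 37.39 and 33.45 FPKM in CF_neg. The mean left under Yap siRNA was 9.11% in cardiomyocytes and 12.1% in fibroblasts. Cardiomyocyte markers (Myh6, Tnnt2, Tnni3, Actc1, Ryr2, Pln) and fibroblast markers (Col1a1, Col1a2, Pdgfra, Dcn, Lum, Tcf21, Postn) followed the labels: all 6 of the first list were higher and all 7 of the second lower in CM_neg than in CF_neg by limma at an adjusted p under 0.05. Of all genes, 42% were higher and 26.4% lower by that test. Each culture also held RNA of the other type. The summed fibroblast markers in cardiomyocytes reached 2.92% of their fibroblast level under Yap siRNA and 2.98% under control siRNA. The summed cardiomyocyte markers in fibroblasts reached 2.44% of their cardiomyocyte level under Yap siRNA and 4.15% under control siRNA. Spearman correlations between libraries of 1 group were 0.990 to 0.996, and no library stood apart.

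Phospholipase A2 enzymes cut a fatty acid, often arachidonic acid, from membrane phospholipids. The secreted enzymes Pla2g2a and Pla2g5 act outside the cell or at its surface, and the cytosolic Pla2g4a prefers arachidonate and is activated by calcium and phosphorylation. Cyclooxygenases turn arachidonate into prostaglandin H2, from which Ptges makes prostaglandin E2 and Ptgis makes prostacyclin. In the heart, prostacyclin is known as a dilator of vessels, and prostaglandin E2 is known to act on both myocytes and fibroblasts through receptors coupled to cyclic AMP.

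Promoter windows in RefSeq (build GRCr8, 250 bases before to 50 after an annotated start) were on hand for 8 of the 9 genes. A window for Ptgis was not used here. Shown are Pla2g2a and Pla2g5, the phospholipases with the largest changes, and Ptgs2 and Ptges, whose windows hold motif matches. They lie at chr5:156359475-156359774 on the plus strand (Pla2g2a), chr5:156345873-156346172 on the minus strand (Pla2g5), chr13:64713813-64714112 on the plus strand (Ptgs2) and chr3:34586938-34587237 on the minus strand (Ptges). Each is written 5′ to 3′ on the strand of its gene, with motif matches in capitals.
Pla2g2a: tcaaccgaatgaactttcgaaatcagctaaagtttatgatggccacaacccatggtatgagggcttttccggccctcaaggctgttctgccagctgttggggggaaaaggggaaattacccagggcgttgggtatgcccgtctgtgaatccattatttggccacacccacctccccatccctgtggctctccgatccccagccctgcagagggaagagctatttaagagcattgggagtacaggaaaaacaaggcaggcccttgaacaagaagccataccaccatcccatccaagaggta
Pla2g5: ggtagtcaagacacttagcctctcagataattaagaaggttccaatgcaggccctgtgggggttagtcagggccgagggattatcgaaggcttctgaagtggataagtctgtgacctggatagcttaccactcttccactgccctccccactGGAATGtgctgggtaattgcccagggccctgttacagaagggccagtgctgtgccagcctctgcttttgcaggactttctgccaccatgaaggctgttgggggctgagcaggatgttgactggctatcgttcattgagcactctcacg
Ptgs2: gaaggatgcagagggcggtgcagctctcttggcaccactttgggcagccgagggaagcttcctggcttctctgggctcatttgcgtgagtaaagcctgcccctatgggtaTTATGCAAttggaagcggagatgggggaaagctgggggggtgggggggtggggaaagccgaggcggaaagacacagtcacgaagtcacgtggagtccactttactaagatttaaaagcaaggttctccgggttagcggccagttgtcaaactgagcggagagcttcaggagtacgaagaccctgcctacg
Ptges: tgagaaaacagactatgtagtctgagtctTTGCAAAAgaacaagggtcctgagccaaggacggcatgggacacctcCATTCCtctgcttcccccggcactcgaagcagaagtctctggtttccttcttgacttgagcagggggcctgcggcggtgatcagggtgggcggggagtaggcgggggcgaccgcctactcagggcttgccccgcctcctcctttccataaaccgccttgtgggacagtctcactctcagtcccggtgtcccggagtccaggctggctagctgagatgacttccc

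The motif of the TEAD factors, the DNA-binding partners of Yap, was searched as GGAATG on both strands. It occurs in the window of Pla2g5 on the plus strand of the gene, with its first base 98 bases before the start, and in that of Ptges on the opposite strand, where the printed strand reads CATTCC, 174 bases before the start. These are 2 of 8 windows, and 14.2% of all 33469 RefSeq windows of the same length hold the motif. A C/EBP motif, TTGCNNAA, occurs in the windows of Ptgs2 (printed strand TTATGCAA, 140 bases before the start) and Ptges (TTGCAAAA, 221 bases before), again 2 of 8, against 10.6% of all windows. Of the other motifs, none of the 8 windows holds the NF-kB-like GGGANTTNC (4.17% of all windows), the AP-1 motif TGANTCA (7.33%) or the cyclic AMP response element TGACGT (7.94%), each on both strands, or TATAAA on the forward strand (8.8%). The motifs do not overlap one another where they match. A match is a string of letters in a fixed window and not a measured binding site.

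The most abundant of the 9 transcripts under Yap siRNA in fibroblasts was Pla2g2a, the secreted group IIA enzyme known from inflammation and from its action on bacterial membranes. It stood at 3864.61, 3727.93 and 3177.59 FPKM in CF_yap, against 92.67, 143.18 and 139.96 FPKM in CF_neg. The groups lie far apart: the mean in CF_yap was 28.7 times that in CF_neg, a log2 fold change of 4.85 ± 0.15. Values after ± beside log2 fold changes are limma's standard errors on the log2(FPKM + 1) scale, which understates the change of low genes. Among the 11302 genes tested this was the highest log2 fold change in fibroblasts. Ranked by FPKM within a library, Pla2g2a was 7th, 7th and 9th of all genes in the CF_yap libraries, against 910th, 570th and 601st in the CF_neg libraries. It took 0.678%, 0.633% and 0.564% of all FPKM in CF_yap.

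In cardiomyocytes Pla2g2a stood at 114.76, 119.42 and 90.47 FPKM in CM_yap, against 15.85, 20.13 and 17.12 FPKM in CM_neg. The groups do not overlap, with a ratio of means of 6.11 and a log2 fold change of 2.54 ± 0.15, ranked 7th among the genes tested. Cardiomyocytes under Yap siRNA thus overlapped fibroblasts under control siRNA (CF_neg), which are next in the order of levels: CF_yap, CF_neg, CM_yap, CM_neg. The difference between the Yap siRNA effects, cardiomyocytes minus fibroblasts, was -2.31 ± 0.21 on the log2 scale. As a share of its fibroblast level, Pla2g2a in cardiomyocytes was 3.01% under Yap siRNA and 14.1% under control siRNA. The summed fibroblast markers stood at 2.92% and 2.98% in the same cultures, and single markers under Yap siRNA ranged over 0.705% to 5.66%. Although their sum differed little between siRNAs, single fibroblast markers rose. Of the 7, 3 were called higher and 0 lower in CM_yap, beside 21% and 28.7% of all genes. In CF_yap 4 were called higher and 0 lower, beside 20.4% and 10.5% of all genes. Dcn averaged 33.3 ± 4.46 FPKM in CM_yap and 15.9 ± 2.91 FPKM in CM_neg, and 588 ± 44.1 FPKM in CF_yap and 177 ± 14 FPKM in CF_neg (SD, n = 3 each). Col1a1 and Col1a2 had lower means under Yap siRNA in both cell types, though neither was called lower. Col1a1 averaged 6103.1 ± 156 FPKM in CF_yap and 6938.8 ± 462 FPKM in CF_neg. For Col1a2 these values were 3654.8 ± 135 and 4346.9 ± 73.3 FPKM, and both genes were without overlap there. In CM_yap the Pla2g2a share lies within the range of the fibroblast markers. In CM_neg its 14.1% lies above the share of each single marker (0.841% to 8.96%). The part of fibroblast RNA in the Pla2g2a levels of cardiomyocytes was not tested.

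Pla2g5, the secreted group V enzyme, had the opposite cell-type order. It stood at 51.21, 53.56 and 57.59 FPKM in CM_yap, against 36.59, 32.61 and 40.91 FPKM in CM_neg, a ratio of 1.47 and a log2 fold change of 0.55 ± 0.11. Fibroblast values were 13.31, 11.86 and 9.81 FPKM in CF_yap, against 1.24, 1.73 and 1.66 FPKM in CF_neg, a ratio of 7.56 and a log2 fold change of 2.31 ± 0.11. All libraries under Yap siRNA were above all controls in both cell types, and the 4 groups do not overlap one another. The fibroblast value ranked 14th among the genes tested, and the difference between effects was -1.76 ± 0.16. With a pseudocount of 5 the fibroblast log2 fold change was 1.34 and the difference between effects was -0.84. As a share of its cardiomyocyte level, Pla2g5 in fibroblasts was 21.5% under Yap siRNA and 4.2% under control siRNA, beside 2.44% and 4.15% for the summed cardiomyocyte markers. In CF_neg the shares of Pla2g5 and of the markers are thus alike, and in CF_yap the share of Pla2g5 lies above that of each single marker, the highest of which was 4.26%. Of the 6 cardiomyocyte markers, 5 were called higher and 1 lower in CM_yap, beside 21% and 28.7% of all genes. In CF_yap 3 of these markers were called higher and 2 lower, beside 20.4% and 10.5% of all genes. The part of cardiomyocyte RNA in the Pla2g5 levels was not tested.

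Pla2g2a and Pla2g5 are neighbours on rat chromosome 5 in a cluster with Pla2g2c, Pla2g2f, Pla2g2d and Pla2g2e. In the RefSeq annotation Pla2g2a lies inside the span of Pla2g5 on the other strand. That span reaches upstream of the start used for the Pla2g5 promoter window, so the window may not be the only one of this gene. Whether the authors' quantification used strand is not given in the sources used here, so reads of the overlap cannot be assigned with certainty. Pla2g5 amounted to 0.309% to 0.344% of Pla2g2a across the CF_yap libraries. In CM_neg the order was turned round, with Pla2g5 at 162% to 239% of the Pla2g2a level across libraries.

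Pla2g4a, the calcium-dependent cytosolic enzyme that feeds most stimulated prostaglandin synthesis, differed less between siRNAs. It stood at 21.53, 19.56 and 18.69 FPKM in CF_yap, against 13.98, 12.97 and 14.63 FPKM in CF_neg, a ratio of 1.44 and a log2 fold change of 0.49 ± 0.10. In cardiomyocytes it stood at 10.51, 10.69 and 9.5 FPKM in CM_yap, against 10.76, 11.43 and 8.31 FPKM in CM_neg. The fibroblast groups are apart and the cardiomyocyte groups overlap (log2 fold change 0.02 ± 0.10). The difference between effects was -0.48 ± 0.15, and -0.30 under quantile normalization.

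**Figure D1:**
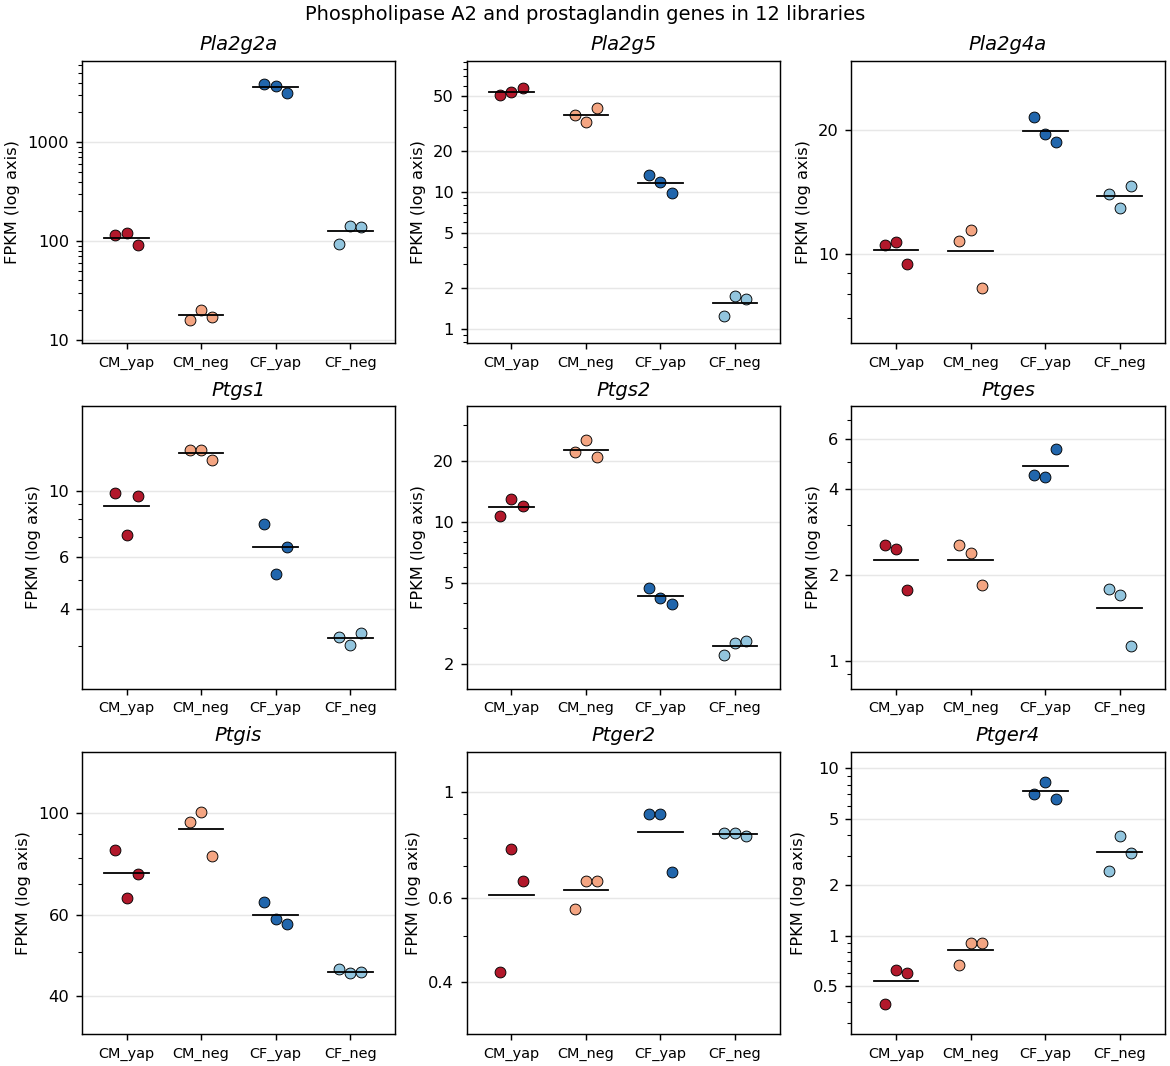
FPKM of the 9 genes in each of the 12 libraries (log axis, a different range in each panel); points are libraries, bars are means of 3, and groups run from CM_yap and CM_neg to CF_yap and CF_neg. Pla2g2a averaged 3590 FPKM in CF_yap and 125 FPKM in CF_neg, and the points for Ptgs1, Ptgs2 and Ptger4 lie lower under Yap siRNA in cardiomyocytes and higher in fibroblasts.

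Both cyclooxygenases were lower under Yap siRNA in cardiomyocytes and higher under Yap siRNA in fibroblasts. Ptgs1, the isoform usually described as constitutive, stood at 9.84, 7.08 and 9.61 FPKM in CM_yap, against 13.68, 13.67 and 12.7 FPKM in CM_neg. Its fibroblast values were 7.72, 5.26 and 6.46 FPKM in CF_yap, against 3.22, 3.03 and 3.32 FPKM in CF_neg. The groups do not overlap in either cell type: Yap siRNA libraries lay at 66.2% of control in cardiomyocytes (-0.56 ± 0.13) and at 2.03 times control in fibroblasts (0.82 ± 0.13). Cardiomyocyte and fibroblast effects differed by -1.38 ± 0.18, or by -0.89 with a pseudocount of 5.

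Ptgs2, the isoform induced by cytokines and growth factors, stood at 10.71, 12.92 and 11.91 FPKM in CM_yap, against 22.07, 25.1 and 20.77 FPKM in CM_neg. The fibroblast values were 4.71, 4.24 and 3.96 FPKM in CF_yap, against 2.23, 2.55 and 2.59 FPKM in CF_neg. Again the groups do not overlap, at 52.3% of control in cardiomyocytes (-0.88 ± 0.10) and 1.75 times control in fibroblasts (0.62 ± 0.10). Its effects differed by -1.50 ± 0.14. Under control siRNA its level in cardiomyocytes was 9.22 times that in fibroblasts, and for Ptgs1 this ratio was 4.18. With a pseudocount of 5 the fibroblast log2 fold changes were 0.48 for Ptgs1 and 0.32 for Ptgs2.

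Within a library the 2 cyclooxygenases can be set against each other per length. The ratio of Ptgs2 to Ptgs1 was 1.09, 1.82 and 1.24 in CM_yap, against 1.61, 1.84 and 1.64 in CM_neg. It was 0.61, 0.806 and 0.613 in CF_yap, against 0.693, 0.842 and 0.78 in CF_neg. Ptgs2 was thus the higher of the pair in every cardiomyocyte library and Ptgs1 in every fibroblast library, and the ratios overlap between siRNAs within each cell type. The summed level of both was 20.6, 20 and 21.5 FPKM in CM_yap, against 35.8, 38.8 and 33.5 FPKM in CM_neg. It was 12.4, 9.5 and 10.4 FPKM in CF_yap, against 5.45, 5.58 and 5.91 FPKM in CF_neg. The cell types were closer in this sum under Yap siRNA than under control siRNA, without overlapping.

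**Figure D2:**
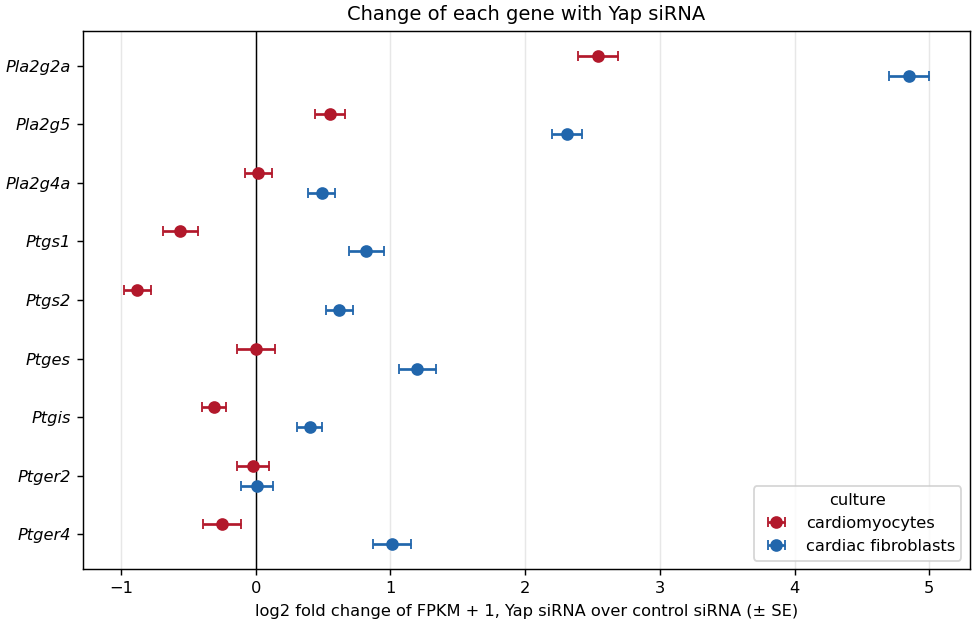
Log2 fold changes of the 9 genes for Yap siRNA against control siRNA, in cardiomyocytes and in fibroblasts, on the log2(FPKM + 1) scale; points are limma estimates and bars are 1 standard error either side. Pla2g2a lies at 2.54 in cardiomyocytes and 4.85 in fibroblasts, while Ptgs2 lies at -0.88 and 0.62.

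Ptges, the inducible microsomal prostaglandin E synthase that works with Ptgs2, stood at 4.5, 4.4 and 5.54 FPKM in CF_yap, against 1.79, 1.7 and 1.13 FPKM in CF_neg. The ratio was 3.13 and the log2 fold change 1.20 ± 0.14, or 0.58 with a pseudocount of 5. In cardiomyocytes it stood at 2.56, 2.47 and 1.77 FPKM in CM_yap, against 2.56, 2.4 and 1.85 FPKM in CM_neg, and these groups overlap. For Ptges the effects differed by -1.20 ± 0.20, or by -0.59 with a pseudocount of 5. Ptges was higher in cardiomyocytes than in fibroblasts under control siRNA (ratio 1.47), and those groups overlap after quantile normalization and also after median-of-ratios scaling.

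Ptgis, the prostacyclin synthase, was the more abundant of the 2 synthases in every library. It stood at 64.23, 58.77 and 57.45 FPKM in CF_yap, against 45.79, 44.84 and 45.12 FPKM in CF_neg, a ratio of 1.33 (0.40 ± 0.09). In cardiomyocytes it stood at 82.95, 65.32 and 73.71 FPKM in CM_yap, against 95.66, 100.35 and 80.64 FPKM in CM_neg. The fibroblast groups are apart, and the cardiomyocyte groups overlap, with the mean in CM_yap at 80.2% of CM_neg (-0.31 ± 0.09). The effects on Ptgis differed by -0.72 ± 0.13.

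The receptors differed from each other. Ptger4, the EP4 receptor, stood at 7.07, 8.3 and 6.59 FPKM in CF_yap, against 2.42, 3.92 and 3.14 FPKM in CF_neg, a ratio of 2.32 (1.01 ± 0.14, or 0.60 with a pseudocount of 5). In cardiomyocytes it was under 1 FPKM throughout, at 0.39, 0.62 and 0.6 FPKM in CM_yap, against 0.67, 0.9 and 0.9 FPKM in CM_neg. These groups are apart as deposited, at 65.2% of control (-0.25 ± 0.14), but overlap under median-of-ratios scaling. This low level makes the cardiomyocyte log2 fold change depend on the pseudocount, at -0.55 with 0.1 and -0.07 with 5. The difference between effects was -1.26 ± 0.20, or -0.67 with a pseudocount of 5. As a share of its fibroblast level, Ptger4 in cardiomyocytes was 7.33% under Yap siRNA and 26.1% under control siRNA, above the summed fibroblast markers in both.

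Ptger2, the EP2 receptor, which like EP4 raises cyclic AMP, was low in all 12 libraries. It stood at 0.42, 0.76 and 0.65 FPKM in CM_yap, against 0.57, 0.65 and 0.65 FPKM in CM_neg. In fibroblasts it stood at 0.9, 0.9 and 0.68 FPKM in CF_yap, against 0.82, 0.82 and 0.81 FPKM in CF_neg. The groups overlap in both cell types, with log2 fold changes of -0.02 ± 0.12 and 0.01 ± 0.12. Under quantile normalization CF_yap lay below CF_neg in all libraries, and the unknown depth limits what can be said of a gene at this level.

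Ordered by mean level, Ptgs2 ran CM_neg, CM_yap, CF_yap, CF_neg and Ptger4 ran CF_yap, CF_neg, CM_neg, CM_yap, with no overlap between neighbours in either. Ptgs1 and Ptgis followed the order of Ptgs2. For Ptgs1 the neighbours CM_yap and CF_yap overlap, and for Ptgis only CM_neg and CM_yap do. Pla2g4a and Ptger2 were highest in the fibroblast groups, and for both the cardiomyocyte groups overlap each other. Ptges was highest in CF_yap, and among its other groups CM_neg overlaps CM_yap and CM_yap overlaps CF_neg.

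In fibroblasts 8 of the 9 genes were higher in all CF_yap libraries than in all CF_neg libraries, none was lower, and Ptger2 overlapped. Of all 11302 genes, 31.4% were higher and 17.7% were lower without overlap in this comparison. In cardiomyocytes Pla2g2a and Pla2g5 were higher, Ptgs1, Ptgs2 and Ptger4 were lower, and 4 genes overlapped, which gives 2 and 3 of 9. Of all genes, 22.7% were higher and 30.5% were lower without overlap. In CM_neg against CF_neg, Pla2g5, Ptgs1, Ptgs2, Ptges and Ptgis were higher (5 of 9) and Pla2g2a, Pla2g4a, Ptger2 and Ptger4 were lower (4 of 9). Of all genes, 44.9% were higher and 28.4% were lower without overlap. Because the 9 genes were chosen with these contrasts known, nothing is read from their counts against those shares. The median log2 fold change of the 9 was 0.82 in fibroblasts (all genes 0.07), -0.02 in cardiomyocytes (all genes -0.06) and 0.37 between cell types (all genes 0.13).

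Pla2g2a took a larger share of the 9 genes together under Yap siRNA. It made up 96.9%, 97.1% and 96.7% of their summed FPKM in CF_yap, against 56.5%, 66.7% and 65.9% in CF_neg. In cardiomyocytes the share was 40.5%, 43.8% and 35.4% in CM_yap, against 7.99%, 9.71% and 9.31% in CM_neg. The shares do not overlap between siRNAs in either cell type.

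**Figure D3:**
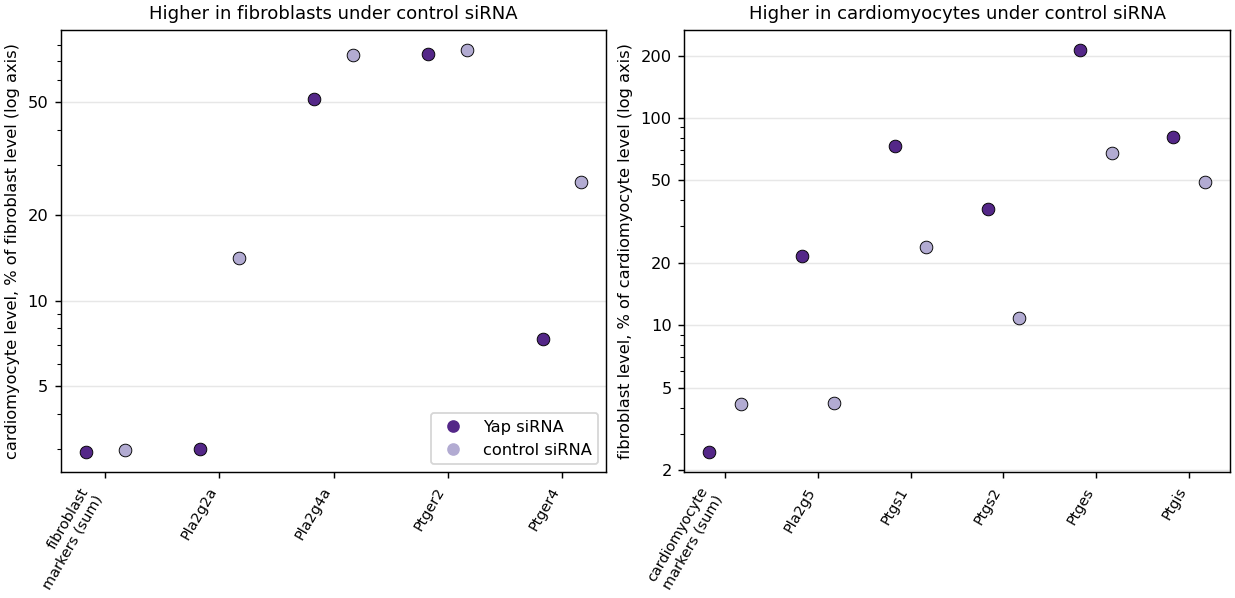
Left, mean level in cardiomyocytes as a percent of that in fibroblasts for the genes higher in fibroblasts under control siRNA and for the summed fibroblast markers; right, the reverse for the genes higher in cardiomyocytes (log axes, dark points Yap siRNA, light points control siRNA). Pla2g2a lies beside the fibroblast markers under Yap siRNA (3.01% and 2.92%) and above them under control siRNA (14.1% and 2.98%). Pla2g5 lies beside the cardiomyocyte markers under control siRNA (4.2% and 4.15%) and above them under Yap siRNA (21.5% and 2.44%).

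Other cell types may add to these bulk levels, where fewer cells of a type and less RNA per cell cannot be told apart. Endothelial cells are known for Ptgis and Ptgs1. Of 9 endothelial markers, 1 was higher and 4 were lower in CM_yap by limma (all genes 21% and 28.7%). In CF_yap 4 of these markers were higher and 0 were lower (all genes 20.4% and 10.5%). Their summed level was 257.1 to 300.4 FPKM in CM_yap, against 311.8 to 368.6 FPKM in CM_neg, and 20.14 to 27.42 FPKM in CF_yap, against 14.61 to 16.6 FPKM in CF_neg. The summed endothelial markers thus moved in the same directions as Ptgs1, Ptgs2 and Ptgis in each cell type, and their part in those changes was not tested. Leukocyte and macrophage markers summed to 176.2 to 229 FPKM in CM_yap, against 178.4 to 225.5 FPKM in CM_neg, and to 302.1 to 345.8 FPKM in CF_yap, against 297.2 to 322.3 FPKM in CF_neg. These ranges overlap in both cell types. Of these 10 markers, 2 were higher and 5 lower in cardiomyocytes, and 1 was higher and 0 lower in fibroblasts, beside the same shares of all genes.

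Smooth muscle and pericyte markers summed to 55.03 to 64.88 FPKM in CM_yap, against 34.1 to 38.45 FPKM in CM_neg, and to 201.2 to 212.5 FPKM in CF_yap, against 269.7 to 299.9 FPKM in CF_neg. Of these 7 markers, 6 were higher and 1 lower in CM_yap (all genes 21% and 28.7%). In CF_yap 3 were higher and 2 lower (all genes 20.4% and 10.5%). Epicardial and mesothelial markers summed to 10.2 to 14.52 FPKM in CM_yap, against 11.4 to 19.29 FPKM in CM_neg, and to 60.39 to 66.29 FPKM in CF_yap, against 38.57 to 41.63 FPKM in CF_neg. Of the 4 tested, 1 was higher and 2 lower in CM_yap, and 3 were higher and 0 lower in CF_yap, beside the same shares. Those 3 went in the direction of the 8 higher genes in fibroblasts. No listed marker in the table was at 0 in all libraries, and the part of these cells was not tested.

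The rest of the pathway was read from a list of 55 genes by role, of which 49 were in the table and 38 passed the filter. These genes were tested with limma over all 11302 genes, with Benjamini-Hochberg adjustment and an adjusted p under 0.05 as the limit. In fibroblasts 10 of 38 rose (26.3%) and 2 fell (5.26%), beside 20.4% and 10.5% of all genes. In cardiomyocytes 9 rose (23.7%) and 14 fell (36.8%), beside 21% and 28.7% of all genes. The difference between effects was negative for 14 (36.8%) and positive for 3 (7.89%), beside 23.7% and 11.7% of all genes. Scaling shifts this balance: of all genes called, the share higher was 66.1% in fibroblasts, or 46.3% under quantile normalization and 54.8% under median-of-ratios scaling. It was 42.3% in cardiomyocytes (47.8% and 53.1%) and 33.1% for the difference between effects (51.2% and 51.8%). The median difference of all genes was -0.13 as deposited and -0.01 under median-of-ratios scaling. Under that scaling the pathway counts were 9 higher and 2 lower in fibroblasts, 11 and 12 in cardiomyocytes, and 8 and 12 for the difference. Under quantile normalization they were 8 and 3, 10 and 14, and 7 and 12. The list was made with earlier results of these data known. Nothing is read from its counts, in all or by role, against the shares of all genes.

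Of 8 other phospholipases and receptors tested, 3 rose (37.5%) and none fell in fibroblasts, beside 20.4% and 10.5% of all genes. Pla2g2e, the secreted enzyme beside Pla2g2a in the cluster, stood at 1.96, 2.15 and 1.78 FPKM in CF_yap, against 0.19, 0.87 and 0.38 FPKM in CF_neg (1.03 ± 0.17, adjusted p = 0.000412). Pla2g16, an adipose phospholipase also known as a host factor for picornaviruses, stood at 37.01, 30.87 and 31.61 FPKM in CF_yap, against 10.99, 13.93 and 16.63 FPKM in CF_neg (1.22 ± 0.12, adjusted p = 2.61e-06). Both genes had all CF_yap libraries above all CF_neg libraries, and neither passed in cardiomyocytes (adjusted p = 0.831 for Pla2g2e and 0.755 for Pla2g16). Their differences between effects passed, at -0.98 ± 0.25 (adjusted p = 0.00707) for Pla2g2e and -1.17 ± 0.17 (adjusted p = 0.000128) for Pla2g16. For Pla2g2e that call ended with a pseudocount of 0.1 (adjusted p = 0.176). Pla2g2e averaged 0.143 FPKM in CM_yap, 0.107 FPKM in CM_neg and 0.48 FPKM in CF_neg. It thus passed the filter on low values only through CF_yap, the group where it is high. Its calls are therefore no independent support for the rise. The other genes of the Pla2g2a cluster, Pla2g2c, Pla2g2d and Pla2g2f, were under the filter, at no more than 1.28 FPKM in any library.

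Pla2g7, the secreted enzyme that breaks down platelet-activating factor, rose in both cell types. It stood at 16.75, 17.76 and 16.51 FPKM in CM_yap, against 8.36, 8.56 and 8.44 FPKM in CM_neg (0.93 ± 0.10, adjusted p = 3.64e-06). The enzyme reached 7.8, 9.26 and 6.73 FPKM in CF_yap, against 4.31, 4.82 and 5.11 FPKM in CF_neg (0.63 ± 0.10, adjusted p = 0.00026). Its groups do not overlap in either cell type. In cardiomyocytes Pla2g4b, a cytosolic relative of Pla2g4a, also rose (0.71 ± 0.11, adjusted p = 0.000106). Pla2r1, a receptor that binds secreted phospholipases, fell there by 0.65 (SE 0.11, adjusted p = 0.000147), as did Pla2g12a by 0.38 (SE 0.10, adjusted p = 0.00533). The lower call of Pla2g15, a lysosomal phospholipase (-0.42 ± 0.15, adjusted p = 0.0324), ended in 7 of 21 alternatives, among them leaving out CM_yap 2, CM_yap 3, CM_neg 1 or CM_neg 2 (adjusted p 0.0569 to 0.161 over the 7).

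The list of arachidonate supply and restraint holds 6 genes, of which 5 fell in cardiomyocytes (83.3%, beside 28.7% of all genes) and 1 rose (16.7%, beside 21%). This list too was made with earlier results known, so its shares are a description. The 5 are the supply genes Fads1, Fads2, Acsl4 and Lpcat3, and Anxa1, which is known to restrain phospholipase A2 (-0.60 ± 0.13, adjusted p = 0.00188). Fads2, a desaturase in arachidonate synthesis, stood at 9.41, 6.82 and 11.66 FPKM in CM_yap, against 19.97, 22.08 and 20.26 FPKM in CM_neg (-1.11 ± 0.13, adjusted p = 9.72e-06). Acsl4, which activates arachidonate for storage in phospholipids, stood at 11.38, 11.72 and 9.4 FPKM in CM_yap, against 19.88, 20.49 and 15.91 FPKM in CM_neg (-0.74 ± 0.10, adjusted p = 2.22e-05). Fads1, the other desaturase, fell by 0.52 (SE 0.08, adjusted p = 9.67e-05), and none of these groups overlap. Mgll, which frees arachidonate from the endocannabinoid 2-arachidonoylglycerol, rose in cardiomyocytes (0.50 ± 0.13, adjusted p = 0.00445) and in fibroblasts (0.67 ± 0.13, adjusted p = 0.00108). In fibroblasts none of the 6 fell (all genes 10.5%) and 2 rose (33.3%, beside 20.4%). The second, Lpcat3, which places arachidonate in phospholipids (0.27 ± 0.10, adjusted p = 0.0484), lost its call in 14 of 21 alternatives (adjusted p 0.0538 to 0.152), among them leaving out any 1 of the 6 fibroblast libraries or of the 3 CM_neg libraries. The differences between effects passed for Acsl4 (-0.98 ± 0.14, adjusted p = 9.1e-05), Fads2 (-1.01 ± 0.19, adjusted p = 0.000975) and Lpcat3 (-0.79 ± 0.14, adjusted p = 0.000619).

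Among 8 other prostanoid synthases, 4 rose and 3 fell in cardiomyocytes (50% and 37.5%, beside 21% and 28.7% of all genes). In fibroblasts 1 rose and 1 fell (12.5% each, beside 20.4% and 10.5%). Cbr1, a carbonyl reductase that can turn prostaglandin E2 into prostaglandin F2 alpha, stood at 151.32, 160.95 and 146.62 FPKM in CM_yap, against 51.65, 53.4 and 61.24 FPKM in CM_neg (1.45 ± 0.08, adjusted p = 5.11e-09). Cbr1 reached 63.02, 66.69 and 64.73 FPKM in CF_yap, against 49.66, 44.48 and 54.17 FPKM in CF_neg (0.39 ± 0.08, adjusted p = 0.00172). Its groups do not overlap in either cell type, and the difference between effects was 1.06 ± 0.11 (adjusted p = 6.92e-06). Hpgds, the haematopoietic prostaglandin D synthase, fell in cardiomyocytes by 0.68 (SE 0.15, adjusted p = 0.00147). Tbxas1, thromboxane synthase, was called lower there (-0.45 ± 0.15, adjusted p = 0.0231), and that call ended when CM_yap 1, CM_yap 2, CM_neg 1 or CM_neg 2 was left out (adjusted p 0.0575 to 0.101). Hpgds and Tbxas1 are known from leukocytes, and 5 of 10 leukocyte and macrophage markers were also called lower in CM_yap and 2 higher, with overlapping sums. Of all genes, 28.7% were called lower and 21% higher there. Of the leukocyte and macrophage markers, Cd14 averaged 11 ± 2.86 FPKM in CM_yap and 18.5 ± 1.1 FPKM in CM_neg (SD, n = 3 each here and below). C1qb averaged 6.26 ± 1.73 FPKM in CM_yap and 10.5 ± 1.42 FPKM in CM_neg. The other way went Cd68, at 52.1 ± 9.13 FPKM in CM_yap and 35.2 ± 7.06 FPKM in CM_neg. Tyrobp likewise averaged 51.9 ± 12.4 FPKM in CM_yap and 38.4 ± 3.05 FPKM in CM_neg. The part of leukocytes in the falls of Hpgds and Tbxas1 was not tested. Fam213b, a prostamide and prostaglandin F synthase, was called higher (0.49 ± 0.14, adjusted p = 0.0102; 0.0501 without CM_yap 2). Akr1b1, which also has prostaglandin F synthase activity, was called higher by 0.24 ± 0.08 (adjusted p = 0.018; 0.0898 without CM_yap 1 and 0.0701 without CM_neg 2).

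Ptges3, a cochaperone also named cytosolic prostaglandin E synthase, went the other way from Ptges in fibroblasts. It stood at 140.74, 147.23 and 146 FPKM in CF_yap, against 186.71, 168.34 and 192.52 FPKM in CF_neg, without overlap (-0.33 ± 0.08, adjusted p = 0.00387). Its lower call in cardiomyocytes (-0.19 ± 0.08, adjusted p = 0.0457) ended in 12 of 21 alternatives (adjusted p 0.0516 to 0.223), among them leaving out CM_yap 1, CM_yap 3, CM_neg 1, CM_neg 2, CF_neg 1 or any CF_yap library. Ptges2, the other membrane-bound form, passed in neither cell type (adjusted p = 0.375 in cardiomyocytes and 0.582 in fibroblasts).

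Of 5 other prostanoid receptors tested, 1 rose in fibroblasts (20%, beside 20.4% of all genes). None passed in cardiomyocytes, where 21% of all genes rose and 28.7% fell. Ptgir, the prostacyclin receptor and thus the target of the product of Ptgis, stood at 2.86, 2.03 and 2.74 FPKM in CF_yap, against 0.75, 0.9 and 0.59 FPKM in CF_neg (1.02 ± 0.17, adjusted p = 0.000405). The groups do not overlap, and the difference between effects was -1.10 ± 0.24 (adjusted p = 0.00302). Ptgfr, the prostaglandin F receptor, was the most abundant of these receptors in cardiomyocytes, at 42.29, 49.92 and 46.49 FPKM in CM_yap, against 33.35, 35.41 and 41.53 FPKM in CM_neg. Although those groups do not overlap, its change missed the limit (0.33 ± 0.13, adjusted p = 0.0509).

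Slco2a1, the transporter that takes prostaglandins into cells for inactivation, had the largest difference between effects of the pathway genes tested. It stood at 6.68, 6.42 and 7.83 FPKM in CM_yap, against 13.34, 13.9 and 14.6 FPKM in CM_neg (-0.91 ± 0.12, adjusted p = 1.8e-05). Slco2a1 stood in fibroblasts at 15.14, 10.71 and 13.05 FPKM in CF_yap, against 2.71, 2.23 and 2.82 FPKM in CF_neg (1.95 ± 0.12, adjusted p = 1.62e-08). It thus fell in cardiomyocytes and rose in fibroblasts, as the values of Ptgs1 and Ptgs2 do, with a difference between effects of -2.86 ± 0.17 (adjusted p = 2.13e-08). The summed endothelial markers were likewise lower in CM_yap (257.1 to 300.4 FPKM) than in CM_neg (311.8 to 368.6 FPKM) and higher in CF_yap (20.14 to 27.42 FPKM) than in CF_neg (14.61 to 16.6 FPKM), and their part in Slco2a1 was not tested. In cardiomyocytes Ptgr1, a reductase that inactivates prostaglandins, rose (0.60 ± 0.09, adjusted p = 9.25e-05), and so did Abcc4, which exports them (0.63 ± 0.10, adjusted p = 0.000151).

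**Figure D4:**
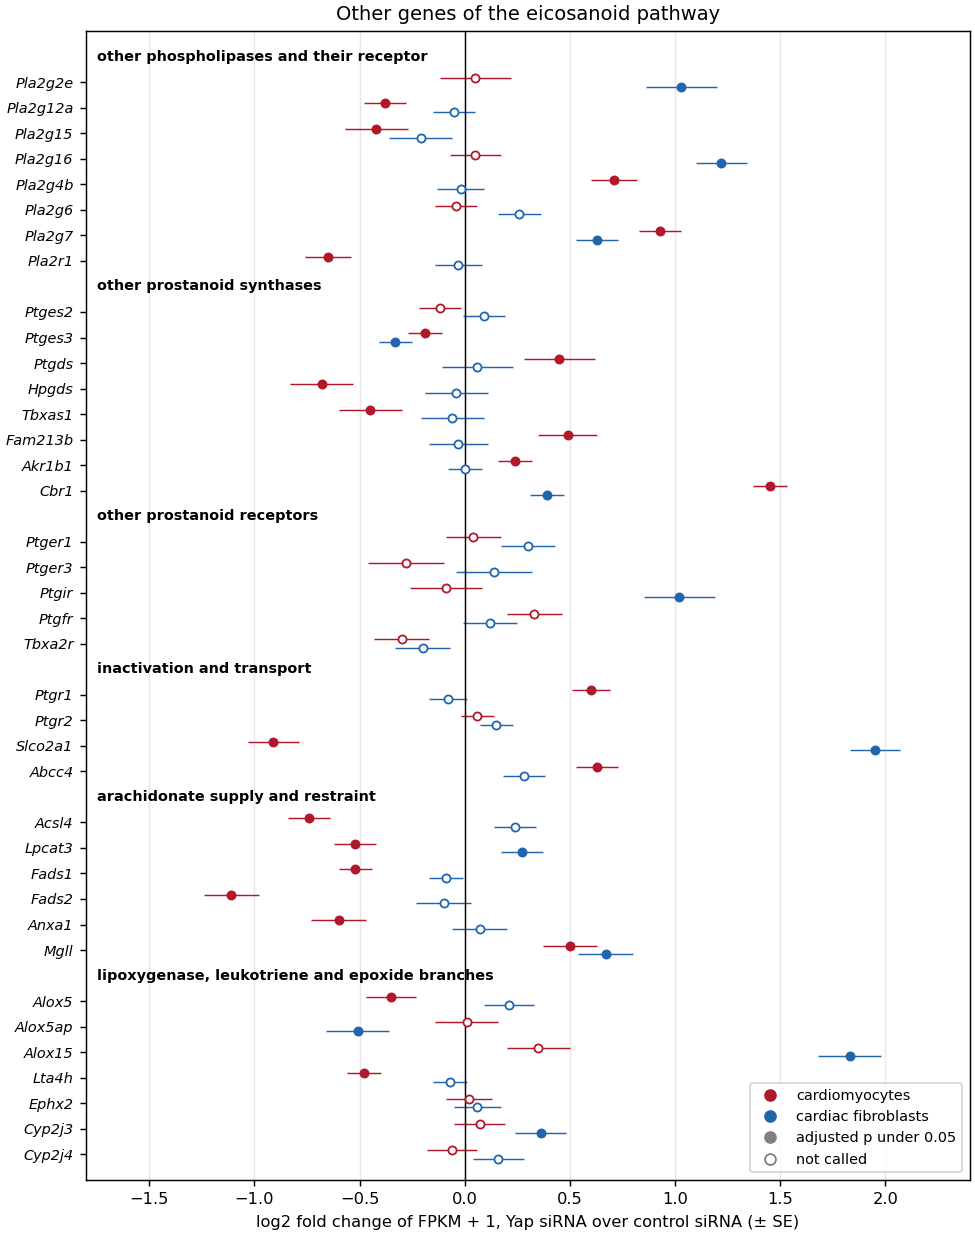
Log2 fold changes for Yap siRNA against control siRNA of the 38 other pathway genes tested, by role, in cardiomyocytes and fibroblasts; bars are 1 standard error either side and filled points have an adjusted p under 0.05. Slco2a1 lies at -0.91 in cardiomyocytes and 1.95 in fibroblasts, and 5 of the 6 genes of arachidonate supply and restraint, Anxa1 among them, lie below 0 as filled points in cardiomyocytes. Of all genes, 28.7% were called lower there, and the lists were made with earlier results of these data known.

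In the lipoxygenase, leukotriene and epoxide branches, 2 of 7 tested genes rose and 1 fell in fibroblasts. These are 28.6% and 14.3%, beside 20.4% and 10.5% of all genes. In cardiomyocytes 2 fell (28.6%, beside 28.7%) and none rose (all genes 21%). Alox15, which oxygenates arachidonate to 12- and 15-hydroperoxy acids, stood at 7.22, 7.06 and 7.53 FPKM in CF_yap, against 1.09, 1.36 and 1.53 FPKM in CF_neg (1.83 ± 0.15, adjusted p = 2.76e-07). The groups lie far apart, and the difference between effects was -1.48 ± 0.21 (adjusted p = 8.08e-05). Alox5ap, the partner that presents arachidonate to 5-lipoxygenase, was called lower in fibroblasts (-0.51 ± 0.15, adjusted p = 0.0177). That call ended in 5 of 20 alternatives (adjusted p 0.0538 to 0.143), among them leaving out CF_yap 2, CF_yap 3, CF_neg 1 or CF_neg 3. The higher call of Cyp2j3, an epoxygenase with close relatives whose reads may be shared (0.36 ± 0.12, adjusted p = 0.0347), ended in 8 of 20 (adjusted p 0.0653 to 0.316), among them leaving out CF_yap 1, CF_yap 2, CF_yap 3, CF_neg 1 or CF_neg 2. In cardiomyocytes Lta4h, leukotriene A4 hydrolase, fell by 0.48 (SE 0.08, adjusted p = 0.000164). Alox5, 5-lipoxygenase, was called lower there at under 1 FPKM (-0.35 ± 0.12, adjusted p = 0.0208; 0.064 without CM_neg 1). It too is known from leukocytes. Of the 10 leukocyte and macrophage markers, 5 were lower and 2 higher in CM_yap, beside 28.7% and 21% of all genes. The sums of these markers overlap, and the part of leukocytes was not tested.

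Between cell types under control siRNA, 19 of the 38 pathway genes were higher in cardiomyocytes (50%) and 11 were lower (28.9%), beside 42% and 26.4% of all genes. Of all genes called, 61.4% were higher, or 45% under quantile normalization and 50.8% under median-of-ratios scaling. The pathway counts were then 16 and 16 by the first and 18 and 15 by the second, and the median log2 fold change of all genes was -0.06 and 0.01, against 0.13 as deposited. Ptgfr stood at 33.35, 35.41 and 41.53 FPKM in CM_neg, against 1.41, 0.73 and 1.35 FPKM in CF_neg (4.14 ± 0.13, adjusted p = 2.17e-13). Its level in fibroblasts, 3.16% of that in cardiomyocytes, is in the range of the cardiomyocyte markers there (0.952% to 9.8%). Ptgds, the lipocalin-type prostaglandin D synthase, was also higher in CM_neg (3.67 ± 0.17, adjusted p = 2.6e-11). All 4 tested genes of inactivation and transport were higher in CM_neg, beside 42% of all genes. Among them were Slco2a1 (2.06 ± 0.12, adjusted p = 2.86e-10) and Ptgr1 (1.94 ± 0.09, adjusted p = 3e-11). Lower in CM_neg were Fads1 (-1.85 ± 0.08, adjusted p = 1.07e-11), Alox5ap (-1.38 ± 0.15, adjusted p = 7.89e-07) and the thromboxane receptor Tbxa2r (-1.16 ± 0.13, adjusted p = 1.4e-06).

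Genes whose pattern was most like each of the 9 were ranked by Pearson's r of log2(FPKM + 1) over the 12 libraries, among 8249 genes averaging 5 FPKM or more. With 4 groups of 3 libraries, r mostly reflects the group means, and it is given as a description. Nearest to Pla2g2a were Crot (0.987), Rida (0.980) and Add3 (0.979), and nearest to Pla2g5 were Nxf1 (0.993), Gpr146 (0.992) and St3gal6 (0.991). Pla2g4a lay nearest to Il13ra1 (0.980), Rnase4 (0.977) and Gda (0.977). Ptgs1 lay nearest to Enpp4 (0.984), Acvr1b (0.980) and Ptgis (0.979), and Ptgis to Mcl1 (0.983), Ccl3 (0.982) and Ptgs1 (0.979), so Ptgs1 and Ptgis are in each other's lists. For Ptgs2 they were F11r (0.990), Btg2 (0.988) and Akap11 (0.986), and for Ptger4 they were Entpd2 (0.991), Tapbpl (0.990) and Oas2 (0.989). The values were lower for Ptges, led by Ppfibp1 (0.945), Uap1 (0.940) and Nfkbia (0.933), and for Ptger2, led by Ing2 (0.879), Specc1 (0.830) and Ube2j1 (0.823).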

How the data were processed

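Poly-A RNA of 12 libraries was sequenced on the BGISEQ-500 by a low-input protocol, per the labels' protocols. HISAT and Bowtie2, with genome rn6, appear in the submitters' processing notes; the sources used here give no quantifier, annotation or tool versions. The authors deposited 1 table of FPKM per gene and library, per the file headers, summing to 563193.5 to 620119.3 per library. To look for spacing by whole reads, values were divided by the lowest value above 0 of their gene. Of 56975 such ratios, 19.1% lay within 0.1 of a whole number, against 20% with no steps. Highly expressed genes were not left out, so this cannot tell whether low values step by whole reads. The depth was not estimated and is left unknown. Symbols were restored by gene ID for 29 of 31 lines that lacked one, and 14516 IDs matched RefSeq.

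Values were analysed as log2(FPKM + 1) in limma 3.58.1 (R 4.3.3; lmFit, then eBayes with a variance trend), with all 4 groups in 1 fit over 11302 genes, two-sided, with Benjamini-Hochberg adjustment. An exact permutation test of 3 libraries against 3 cannot give a p under 0.1. The fit was tested on simulated data with known changes, and the outcome is not given here. Changes were put only into CM_yap values of genes well above the filter, with independent noise for each library. The simulation thus does not cover changes of low genes, scaling shifts or libraries that share a culture. Python 3.11.15, pandas 2.3.3 and matplotlib 3.10.9 were used beside it. The 9 genes, the pathway and marker lists and the tests were chosen with earlier results of these data known. Named were the 9 genes, Yap1, up to 3 called pathway genes per role and direction with the smallest p, and the 3 genes most like each of the 9. Further pathway genes are named where a count or a contrast with these called for it, after their values were seen. Alternatives were pseudocounts of 0.1 and 5, a filter of 5 FPKM or none, quantile normalization, median-of-ratios scaling, a fit with no variance trend, a fit of the compared groups alone, replicate number as a block and each library left out in turn.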

Additional observations from a re-analysis of the deposited data

Results flagged for a closer look

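For Ptgs1, Ptgs2 and Ptger4 every Yap siRNA library lay below its controls in cardiomyocytes and above them in fibroblasts. Of all 11302 genes, 30.5% were lower without overlap in cardiomyocytes and 31.4% were higher without overlap in fibroblasts. How many genes do both was not counted, so nothing is read from the number of such genes here. The difference between effects, cardiomyocytes minus fibroblasts, was -1.38 for Ptgs1, -1.50 for Ptgs2 and -1.26 for Ptger4 on the log2 scale. With a pseudocount of 5 it was -0.89 for Ptgs1, -1.03 for Ptgs2 and -0.67 for Ptger4. Under median-of-ratios scaling the cardiomyocyte groups of Ptger4 overlap, which leaves Ptgs1 and Ptgs2. These differences were not tested, since the genes were chosen with the contrasts known.

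For 17 of the 38 other pathway genes the difference between effects passed limma's interaction test at an adjusted p under 0.05. Of all genes, 23.7% passed with a negative and 11.7% with a positive difference. A negative difference means a lower log2 fold change with Yap siRNA in cardiomyocytes than in fibroblasts, not a lower level. Among the pathway genes the difference was negative for Slco2a1 (-2.86), Alox15 (-1.48), Pla2g16 (-1.17), Ptgir (-1.10), Fads2 (-1.01), Acsl4 (-0.98), Pla2g2e (-0.98), Lpcat3 (-0.79), Anxa1 (-0.66), Hpgds (-0.64), Pla2r1 (-0.62), Alox5 (-0.57), Fads1 (-0.43) and Lta4h (-0.40). It was positive for Cbr1 (1.06), Pla2g4b (0.72) and Ptgr1 (0.67). Of these, the call of Hpgds ended in 7 of 19 alternatives (adjusted p 0.0509 to 0.107), among them leaving out CM_yap 1, CM_neg 2, CF_yap 1, CF_yap 3 or CF_neg 2. Alox5 ended under quantile normalization (adjusted p = 0.0515), Lta4h under median-of-ratios scaling (0.0589) and Pla2g2e with a pseudocount of 0.1 (0.176). The calls of Anxa1 and Fads1 for this difference were not followed through the alternatives, so their stability is unknown.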

How the results depend on the processing

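Counts of genes called stayed within 1.5 times of their value in every alternative run. Pathway counts did too, except with a filter of 5 FPKM, which tested 23 pathway genes in place of 38 and called 10 for the difference between effects (17 as reported) and 19 between cell types (30 as reported). With 1 library left out, pathway calls ranged over 9 to 14 in fibroblasts, 18 to 25 in cardiomyocytes, 16 to 19 for the difference and 29 to 31 between cell types. No pathway result that was followed through the alternatives changed sign. Calls of other pathway genes, among them Anxa1 and Lpcat3 in cardiomyocytes and Anxa1 and Fads1 for the difference, were not followed. Of 71 named pathway results 56 kept their call and direction throughout, and 15 lost the call in at least 1 alternative. Signs varied for values near 0: Pla2g4a, Ptges and Ptger2 in cardiomyocytes, and Ptger2 in fibroblasts and in the difference.

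With replicate number as a block, 5565 genes were called in cardiomyocytes (5626 without), 3448 in fibroblasts (3495), 3885 for the difference (3993) and 7697 between cell types (7726). Same-numbered libraries of the 2 siRNAs were compared in their deviations from group means. They correlated by 0.14, 0.04 and 0.09 in cardiomyocytes and by -0.00, -0.09 and -0.12 in fibroblasts. Such weak values cannot tell whether the same number means a shared animal or culture, which the sources used here do not say. The unknown depth limits genes under about 1 FPKM, among them Ptger2, Ptger4 in cardiomyocytes and Pla2g2e outside CF_yap.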
